A study of Mus musculus with 11 samples.

Results

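The genes described here encode subunits of respiratory complexes I, II and III of the inner mitochondrial membrane. They were chosen by symbol from the probe sets that carry exactly 1 gene symbol. Genes of the Ndufa, Ndufb, Ndufc, Ndufs, Ndufv and Uqcr families and Sdha, Sdhb, Sdhc and Sdhd were taken, the Ndufaf assembly factors were left out, and the probe set with the highest mean represented each gene. This gave 48 of the 19933 genes on the array: 36 of complex I, 4 of complex II and 8 of complex III. Cyc1, the cytochrome c1 subunit of complex III, lies outside the rule by its symbol.

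Complex I takes electrons from NADH and passes them to ubiquinone while pumping protons. Complex II, succinate dehydrogenase, feeds ubiquinone from the TCA cycle and pumps no protons, and complex III passes the electrons on to cytochrome c. Erythroid progenitors also depend on mitochondria for heme synthesis and iron-sulfur clusters, and lose them late in maturation. Dendritic cells (DC) are antigen-presenting cells, and resting DC are known to rely more on respiration than activated ones do.

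The arrays measured sorted cells of C57Bl/6 mice at steady state: Zbtb46 gfp/gfp (KO), Zbtb46 gfp/+ (Het) and Zbtb46+/+ (WT), where a gfp reporter sits in the Zbtb46 locus of KO and Het mice. Zbtb46 is a zinc finger transcription factor known from classical DC and their precursors. Bone marrow gave 3 erythroid stages, all lineage-negative, CD117+, CD41- and CD16/32-: Pre MegE (CD150+ CD105-), Pre CFU-E (CD150+ CD105lo) and CFU-E (CD150- CD105+). Spleens of KO and WT mice gave CD4+ DC (B220- CD11c+ MHCII+ CD8- CD172+ CD11b+ CD4+). Each genotype and cell type has 1 array, 11 in all, and neither the age and sex of the mice nor any pooling is given in the sources used here. A stage therefore has 3 arrays of 3 genotypes, and SDs below are over those 3.

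Levels are log2 intensities, given with SDs over arrays where averaged, and differences are on the same scale, given ± the SE of the limma fit. Array medians ran from 7.61 to 7.77, and the upper quartile was 967.58 to 1009.25 intensity units in progenitors, but 604.76 in KO and 641.43 in WT DC. Zbtb46, the targeted gene, read 8.02 in KO and 9.67 in WT DC, and 7.50 (KO), 8.62 (Het) and 8.87 (WT) in CFU-E. In Pre MegE it read 7.71 (KO), 7.67 (Het) and 7.52 (WT), below those arrays' medians. All 5 erythroid markers measured (Gata1, Klf1, Epor, Tfrc and Rhag) were at or above the median on the 9 progenitor arrays. On both DC arrays all 8 CD4+ DC markers and all 4 macrophage markers (C1qa, C1qb, Adgre1 and Csf1r) were at or above it. So were 3 to 5 of the 8 CD4+ DC markers on each progenitor array, and 2 of the 5 erythroid markers (Epor and Tfrc) on both DC arrays. The 4 neutrophil markers (S100a8, S100a9, Mpo and Elane) were at or above it on all 9 progenitor arrays, with a summed level on the log2 scale of 14.25 to 14.45 in Pre MegE, 13.30 to 13.64 in Pre CFU-E and 13.10 to 13.48 in CFU-E. The 4 megakaryocyte markers (Pf4, Itga2b, Gp9 and Vwf) summed to 12.12 to 12.27 in Pre MegE, 10.42 to 10.51 in Pre CFU-E and 10.24 to 10.31 in CFU-E, and the 4 stem and multipotent progenitor markers (Cd34, Meis1, Kit and Angpt1) to 13.96 to 14.04, 12.69 to 12.73 and 11.89 to 12.003. The part of these markers in the stage differences was not tested.

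Of the 48 subunit genes, 47 were at or above the array median on at least 2 arrays and entered the fits. Ndufa4l2, which encodes a paralog of Ndufa4 known to be induced by hypoxia, lay below the median on every array and was not tested. The other 47 averaged between 8.12 and 13.24 over the 9 progenitor arrays, with a median of 11.31. The 48 genes lie on 16 chromosomes, with at most 5 on any one. Ndufa4 keeps its historical complex I symbol, although its product is now assigned to complex IV.

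Promoter windows of 300 bases, 250 before and 50 after the transcription start (RefSeq, GRCm38.p6), were at hand for 40 of the 48 genes, 42 windows in all. They were searched on both strands for the cores bound by factors known to act on nuclear genes of mitochondria. The windows below are those of Uqcr11 and Ndufs6, the genes with the largest rise over the 3 stages, of Sdhd, the only one with an ERR core, and of Ndufb11, which is among the least changed. Capitals mark matches to the NRF1 core (GCGCANGCG), the ETS core bound by GABP (CCGGAAG), the YY1 core (AAGATGGCG) and the ERR core (TCAAGGTCA), on either strand.
Uqcr11, chr10:80406772-80407071, minus strand: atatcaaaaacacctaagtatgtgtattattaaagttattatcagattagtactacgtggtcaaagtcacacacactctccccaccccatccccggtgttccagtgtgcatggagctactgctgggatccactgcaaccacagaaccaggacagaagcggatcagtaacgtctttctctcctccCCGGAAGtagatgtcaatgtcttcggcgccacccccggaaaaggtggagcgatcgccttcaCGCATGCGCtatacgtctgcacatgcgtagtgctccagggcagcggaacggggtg
Ndufs6, chr13:73328433-73328732, minus strand: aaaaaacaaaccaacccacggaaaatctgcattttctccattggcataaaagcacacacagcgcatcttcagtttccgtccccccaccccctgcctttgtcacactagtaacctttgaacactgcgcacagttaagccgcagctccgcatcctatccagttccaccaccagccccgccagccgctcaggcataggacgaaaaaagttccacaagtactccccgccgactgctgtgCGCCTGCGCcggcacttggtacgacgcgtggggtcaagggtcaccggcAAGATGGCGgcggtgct
Sdhd, chr9:50603800-50604099, minus strand: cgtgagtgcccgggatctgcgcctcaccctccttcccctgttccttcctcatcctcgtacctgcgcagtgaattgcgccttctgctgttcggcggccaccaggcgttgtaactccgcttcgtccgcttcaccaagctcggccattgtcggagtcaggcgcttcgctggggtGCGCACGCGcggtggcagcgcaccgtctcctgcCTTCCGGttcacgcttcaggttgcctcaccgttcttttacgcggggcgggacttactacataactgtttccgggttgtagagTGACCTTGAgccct
Ndufb11, chrX:20617570-20617869, minus strand: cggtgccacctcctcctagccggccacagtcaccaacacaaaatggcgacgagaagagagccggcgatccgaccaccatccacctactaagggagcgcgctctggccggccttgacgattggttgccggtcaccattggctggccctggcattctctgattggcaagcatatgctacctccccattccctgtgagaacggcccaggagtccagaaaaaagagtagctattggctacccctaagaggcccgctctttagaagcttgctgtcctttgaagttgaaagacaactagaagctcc
Uqcr11 holds an ETS core and, on the strand opposite to the one printed, an NRF1 core that spans the start. Ndufs6 holds an NRF1 core before the start and a YY1 core after it. Sdhd holds an NRF1 core, an ETS core and the ERR core, and the Ndufb11 window holds none of these 4. No match overlaps another in these windows.

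The NRF1 core was in 12 of the 42 subunit windows (28.6%), against 13.8% of the 10930 windows of all genes tested in progenitors. The YY1 core was in 5 subunit windows (11.9%) against 3.17%, and the ETS core in 8 (19.0%) against 18.2%. The ERR core was in 1 subunit window (2.38%) against 0.302%. The GATA core AGATAA was in 2 subunit windows (4.76%) against 6.48%, and CCAAT in 13 (31.0%) against 37.6%. These are matches of letters, not binding sites, and the shares were not tested. Over all 32851 windows of the table the shares were 6.25% for NRF1, 1.40% for YY1, 8.86% for ETS, 0.423% for ERR, 11.2% for GATA and 37.4% for CCAAT.

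The first question was how the subunit genes behaved from Pre MegE to Pre CFU-E, the step at which CD105 appears. They rose as a group: 44 of 47 were called higher in Pre CFU-E, none lower, and the median difference was 0.54 or 1.45-fold, where the median of all genes tested was 0.04. Across all 10701 genes tested 37.1% were called higher (limma with Benjamini-Hochberg adjustment, adjusted p under 0.05). In 43 of the 47 genes every Pre CFU-E array exceeded every Pre MegE array, as in 40.1% of all genes tested. In bulk RNA of sorted cells, fewer cells of a type and less RNA per cell cannot be told apart. With arrays centred on their medians the median of all genes moved to 0.12, and calls over all genes went to 5045 higher and 2522 lower, against 3965 higher and 3134 lower. The subunit genes then numbered 46 higher and none lower, with a median of 0.62.

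**Figure D1:**
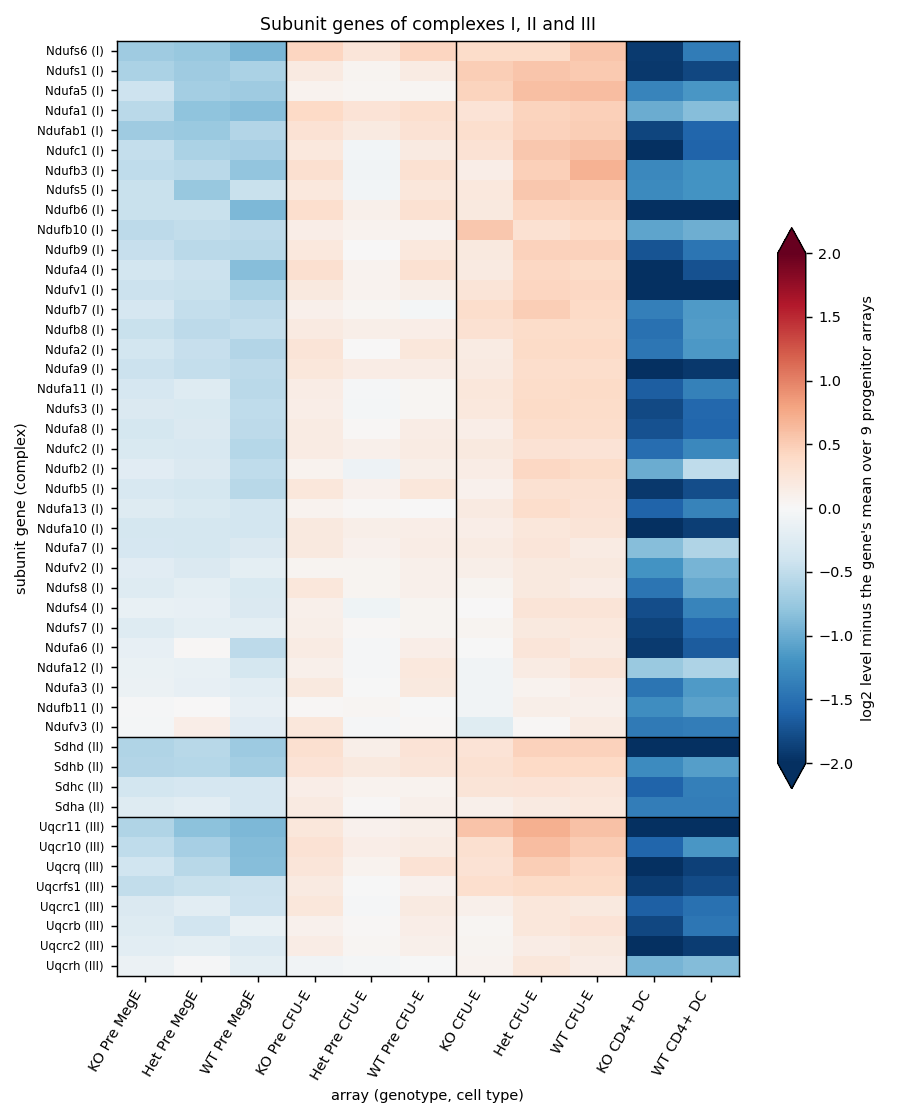
Log2 level of each of the 47 tested subunit genes (rows, by complex and by size of the rise) on each of the 11 arrays (columns), minus the gene's mean over the 9 progenitor arrays; colours stop at 2 in either direction. Most rows pass from blue in Pre MegE to red in CFU-E, with the KO CFU-E array paler than the Het and WT ones, and the DC columns are the bluest.

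The 6 core subunits of complex I measured here carry the flavin and the iron-sulfur clusters or line the path to ubiquinone, and all 6 rose at this step, with a median difference of 0.40. Ndufs1, the large iron-sulfur subunit, had levels of 10.42 (KO), 10.34 (Het) and 10.43 (WT) in Pre MegE, 11.23 (KO), 11.11 (Het) and 11.22 (WT) in Pre CFU-E, and 11.55 (KO), 11.60 (Het) and 11.58 (WT) in CFU-E. The 3 stages did not overlap, and the difference of Pre CFU-E from Pre MegE was 0.79 ± 0.05 (adjusted p = 1.17e-06). Ndufv1, which binds the flavin and oxidises NADH, had 11.61 (KO), 11.58 (Het) and 11.40 (WT) in Pre MegE, 12.23 (KO), 12.11 (Het) and 12.15 (WT) in Pre CFU-E, and 12.29 (KO), 12.47 (Het) and 12.45 (WT) in CFU-E. Its Pre CFU-E arrays all lay above its Pre MegE arrays, by 0.63 ± 0.07 (adjusted p = 4.90e-05). The other 4 rose less: Ndufs3 by 0.42 (adjusted p = 0.00112), Ndufs8 by 0.37 (adjusted p = 0.000639), Ndufv2 by 0.30 (adjusted p = 0.000332) and Ndufs7 by 0.28 (adjusted p = 0.002). Ndufs7, whose product lies next to the ubiquinone site, averaged 13.30 ± 0.05 in Pre CFU-E and 13.03 ± 0.04 in Pre MegE (SD, n = 3 each).

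Accessory subunits surround the core and are needed for assembly and stability. All 14 tested Ndufa genes rose at this step, as did 8 of 9 Ndufb genes and 5 of 6 of the Ndufc, Ndufs and Ndufv accessory genes. The largest rise of all belonged to Ndufs6, a zinc-binding accessory subunit of the NADH-oxidising arm, with 9.36 (KO), 9.31 (Het) and 9.14 (WT) in Pre MegE, 10.50 (KO), 10.30 (Het) and 10.49 (WT) in Pre CFU-E, and 10.43 (KO), 10.43 (Het) and 10.62 (WT) in CFU-E. Its difference of Pre CFU-E from Pre MegE was 1.16 ± 0.08 (adjusted p = 1.84e-06), and all its Pre MegE arrays lay below all its later ones. Ndufa1, a small X-linked membrane subunit, rose by 1.07 ± 0.09 (adjusted p = 6.09e-06). Ndufab1, the mitochondrial acyl carrier protein, rose by 0.93 ± 0.06 (adjusted p = 8.36e-07), with 11.22 (KO), 11.11 (Het) and 11.23 (WT) in Pre CFU-E, against 10.22 (KO), 10.20 (Het) and 10.35 (WT) in Pre MegE. At the other end stood Ndufs4 with 0.22 ± 0.08 (adjusted p = 0.0406), whose call was lost with quantile normalization, with no filter on dim genes, and without WT Pre MegE, WT Pre CFU-E, Het Pre MegE or KO Pre CFU-E. Ndufv3, an accessory subunit beside the flavoprotein, differed by 0.12 ± 0.12 (adjusted p = 0.416), and X-linked Ndufb11, a membrane subunit, by 0.07 ± 0.06 (adjusted p = 0.324). Ndufb11 had 12.27 (KO), 12.29 (Het) and 12.24 (WT) in Pre CFU-E, against 12.22 (KO), 12.26 (Het) and 12.09 (WT) in Pre MegE, so its stages overlapped. Ndufb11 was called with centred arrays and was slightly below 0 after quantile normalization.

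All 4 subunits of complex II rose at the first step, by a median of 0.64. The iron-sulfur subunit Sdhb had 10.68 (KO), 10.69 (Het) and 10.58 (WT) in Pre MegE, 11.53 (KO), 11.45 (Het) and 11.50 (WT) in Pre CFU-E, and 11.57 (KO), 11.66 (Het) and 11.65 (WT) in CFU-E, and its first step was 0.84 ± 0.06 (adjusted p = 1.43e-06). The membrane anchor Sdhd rose by 0.86 ± 0.08 (adjusted p = 1.23e-05), with 11.63 (KO), 11.43 (Het) and 11.59 (WT) in Pre CFU-E, against 10.72 (KO), 10.76 (Het) and 10.58 (WT) in Pre MegE. The other anchor, Sdhc, rose by 0.44 (adjusted p = 2.44e-05), and the flavoprotein Sdha by 0.37 (adjusted p = 0.000417). Within this complex the rises thus ranged from 0.37 to 0.86, and all 4 genes read higher at Pre CFU-E in each genotype.

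In complex III 7 of 8 genes rose. The Rieske iron-sulfur protein Uqcrfs1 had 10.03 (KO), 10.08 (Het) and 10.10 (WT) in Pre MegE, 10.70 (KO), 10.52 (Het) and 10.62 (WT) in Pre CFU-E, and 10.86 (KO), 10.91 (Het) and 10.91 (WT) in CFU-E, with a first step of 0.54 ± 0.06 (adjusted p = 2.66e-05). The core proteins Uqcrc1 and Uqcrc2 rose by 0.43 (adjusted p = 0.000927) and 0.32 (adjusted p = 0.000708). The 5 small subunits had a median difference of 0.80, and 4 of them were called. Uqcr11 led them with 10.62 (KO), 10.41 (Het) and 10.34 (WT) in Pre MegE, 11.46 (KO), 11.32 (Het) and 11.35 (WT) in Pre CFU-E, and 11.80 (KO), 11.94 (Het) and 11.82 (WT) in CFU-E, a first step of 0.92 ± 0.07 (adjusted p = 3.55e-06), and no overlap between stages. Uqcr10 rose by 0.88 ± 0.10 (adjusted p = 3.87e-05). Uqcrh, the hinge protein that contacts cytochrome c1, did not pass at this step, with a difference of 0.07 ± 0.05 (adjusted p = 0.249). Its levels were 12.09 (KO), 12.12 (Het) and 12.14 (WT) in Pre CFU-E, against 12.04 (KO), 12.13 (Het) and 11.97 (WT) in Pre MegE. It was called higher with centred arrays and lay at -0.01 after quantile normalization.

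At the second step, between the CD150+ Pre CFU-E and the CD150- CFU-E, the differences were smaller. Of the 47 genes, 18 were called higher in CFU-E and none lower, beside 18.7% of all genes called higher, and the median difference was 0.16, where that of all genes was 0.00. In 46 of the 47 genes the first step was larger than the second, the exception being Uqcrh. Both steps share the Pre CFU-E arrays. The 18 calls turned on single arrays: leaving out 1 array at a time gave between 7 and 29 genes called higher. The count was 29 without KO CFU-E, 7 without Het CFU-E, 8 without WT CFU-E, 8 without Het Pre CFU-E and 10 without WT Pre CFU-E.

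The largest second steps were those of Ndufa5, an accessory subunit of the matrix arm, and of Uqcr11. Ndufa5 had 8.72 (KO), 8.44 (Het) and 8.42 (WT) in Pre MegE, 9.20 (KO), 9.16 (Het) and 9.16 (WT) in Pre CFU-E, and 9.57 (KO), 9.73 (Het) and 9.74 (WT) in CFU-E, and CFU-E exceeded Pre CFU-E by 0.51 ± 0.08 (adjusted p = 0.000998). Uqcr11 rose again by 0.48 ± 0.07 (adjusted p = 0.000523). Among core subunits of complex I, Ndufs1 rose by 0.39 ± 0.05 (adjusted p = 0.000208), Ndufs3 by 0.27 ± 0.08 (adjusted p = 0.019) and Ndufv1 by 0.24 ± 0.07 (adjusted p = 0.0258). Ndufv2, Ndufs7 and Ndufs8 did not pass, at 0.10, 0.09 and 0.00 (adjusted p = 0.114, 0.239 and 0.97). Ndufb7, which lies on the intermembrane-space side, rose by 0.37 ± 0.06 (adjusted p = 0.00112) and Ndufc1 by 0.37 ± 0.10 (adjusted p = 0.0145). Of complex II, Sdhc alone was called, at 0.16 ± 0.05 (adjusted p = 0.0172), while Sdha, Sdhb and Sdhd stood at 0.06, 0.13 and 0.16 (adjusted p = 0.434, 0.0788 and 0.144). Of complex III, Uqcrfs1 rose by 0.28 ± 0.06 (adjusted p = 0.0035) and Uqcrh by 0.19 ± 0.05 (adjusted p = 0.0178), and Uqcrc1 and Uqcrc2 did not pass, at 0.05 and 0.03 (adjusted p = 0.671 and 0.646). The smallest values were -0.09 for Ndufv3, -0.08 for Ndufa3, 0.02 for Ndufa12 and 0.03 for Ndufb11, with Ndufs8 between Ndufa3 and Ndufa12, and these did not pass (adjusted p = 0.569, 0.38, 0.879 and 0.713). The calls of Ndufs3, Ndufv1, Sdhc and Ndufc1 were each lost without single WT or Het arrays of these stages, and that of Ndufv1 also with no filter.

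Over both steps together, CFU-E exceeded Pre MegE in 45 of 47 genes by the test, beside 41.5% of all genes tested, with a median of 0.70 or 1.62-fold, where that of all genes was 0.05. With centred arrays the median of all genes was 0.17, with 5696 genes higher and 3085 lower against 4443 higher and 3759 lower, and 46 subunit genes were called higher with a median of 0.82. The 11 genes past 2-fold included Uqcr11 at 1.40 ± 0.07 (adjusted p = 9.43e-08), Ndufs6 at 1.22 ± 0.08 (adjusted p = 5.52e-07), Ndufs1 at 1.18 ± 0.05 (adjusted p = 3.04e-08), Uqcr10 at 1.16 ± 0.10 (adjusted p = 3.36e-06), Ndufa5 at 1.16 ± 0.08 (adjusted p = 1.07e-06) and Sdhd at 1.02 ± 0.08 (adjusted p = 2.05e-06). Their products belong to all 3 complexes. The other core or catalytic genes rose by 0.98 for Sdhb, 0.87 for Ndufv1, 0.82 for Uqcrfs1, 0.69 for Ndufs3, 0.60 for Sdhc, 0.48 for Uqcrc1 and 0.43 for Sdha, and by between 0.36 for Uqcrc2 and 0.40 for Ndufv2 in the remaining 4, all called. The least changed were Ndufv3 at 0.03 ± 0.12 (adjusted p = 0.857) and Ndufb11 at 0.10 ± 0.06 (adjusted p = 0.151), which did not pass, and then Ndufa3 at 0.20 ± 0.07 (adjusted p = 0.0268), Uqcrh at 0.26 ± 0.05 (adjusted p = 0.00138) and Ndufa12 at 0.34 ± 0.10 (adjusted p = 0.011). The 11 subunit genes with an NRF1 core in a promoter window had a median rise of 0.92, and the tested subunit genes with a window but no NRF1 core 0.65. With and without the other cores the medians were 0.90 and 0.66 for ETS, 0.77 and 0.69 for YY1, 0.50 and 0.73 for GATA (2 genes with it) and 0.59 and 0.82 for CCAAT. These differences were not tested.

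For 7 of the genes more than 1 probe set carries the symbol. The probe sets of Ndufab1, Ndufb11, Ndufc1, Ndufs3, Uqcr11 and Uqcrb gave rises that differed by at most 0.20 over both steps. Those of Ndufa11 gave 0.70 for the one used and 0.47 for the other. In DC against the mean of the stages Ndufa11 differed more, at -1.50 for the one used and -0.38 for the other. Its size there, and its place below or above the median of all genes (-0.59), thus depend on the probe set.

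Genes of the same energy pathways, from lists drawn up for this purpose, moved as follows from Pre MegE to CFU-E. Of all 10701 genes tested, 4443 (41.5%) were called higher in this comparison and 3759 lower. Of 12 tested complex I assembly factors all 12 were called higher, with a median of 0.55, led by Ndufaf4 at 1.15 ± 0.07 (adjusted p = 3.91e-07) and Ndufaf1 at 1.06 ± 0.10 (adjusted p = 6.42e-06). Of 12 assembly factors of complexes II and III and cytochrome c genes, 11 were higher with a median of 0.35, Cyc1 among them at 0.85 ± 0.06 (adjusted p = 7.79e-07) and cytochrome c itself, Cycs, at 0.48 ± 0.08 (adjusted p = 0.000536). Complex IV had 9 of 10 higher (median 0.54), led by Cox5a at 0.89 ± 0.08 (adjusted p = 6.93e-06), and the ATP synthase, complex V, 14 of 15 (median 0.43), led by Atp5k at 1.02 ± 0.06 (adjusted p = 4.18e-07). The TCA cycle list also holds Pcx, which encodes pyruvate carboxylase, and the pyruvate dehydrogenase genes Pdha1, Pdhb and Dlat. Of its 17 tested genes 14 were higher and 1 lower (median 0.51). Pcx led the list at 1.48 ± 0.08 (adjusted p = 1.38e-07), followed by the cycle gene Idh3a at 1.20 ± 0.06 (adjusted p = 6.60e-08). Of 14 regulators of mitochondrial genes 10 were higher and 2 lower (median 0.34), with Tfam, which binds mitochondrial DNA, at 0.91 ± 0.10 (adjusted p = 1.82e-05) and Gabpb1, a GABP subunit, at -0.54 ± 0.05 (adjusted p = 3.56e-06). Glycolysis had 3 of 12 higher and 6 lower (median -0.14), with the glucose transporter Slc2a1 at -2.07 ± 0.06 (adjusted p = 2.54e-09) and Pkm at -1.76 ± 0.07 (adjusted p = 3.07e-08). Pfkm went the other way, from 10.46 (KO), 10.40 (Het) and 10.36 (WT) in Pre MegE to 11.63 (KO), 11.72 (Het) and 11.77 (WT) in CFU-E. The 2 mitochondrially encoded transcripts with a value, ND3 of complex I and COX2 of complex IV, differed by 0.14 ± 0.05 (adjusted p = 0.0319) and -0.03 ± 0.05 (adjusted p = 0.613).

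The stages could also be compared within each genotype, 1 array against 1, with no replicate check. At the first step every genotype showed a rise, with medians of 0.53 in KO, 0.45 in Het and 0.62 in WT over the 47 genes, above 0 in 47, 44 and 47 genes. At the second step the medians were -0.03 in KO, 0.26 in Het and 0.17 in WT. CFU-E lay below Pre CFU-E in 26 of the 47 genes in KO, in none in Het and in 1 in WT, while over all genes the medians were -0.02 in KO, 0.00 in Het and 0.00 in WT. The KO values below 0 were found in all 3 complexes. In KO, Ndufv3 stood at -0.47, Ndufa3 at -0.27 and Ndufb3 at -0.19, and at the upper end were Ndufb10 at 0.40, Ndufa5 at 0.37, Uqcr11 at 0.34 and Ndufs1 at 0.32. In 21 of 47 genes all 3 CFU-E arrays exceeded all 3 Pre CFU-E arrays, against 24.9% of all genes tested.

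**Figure D2:**
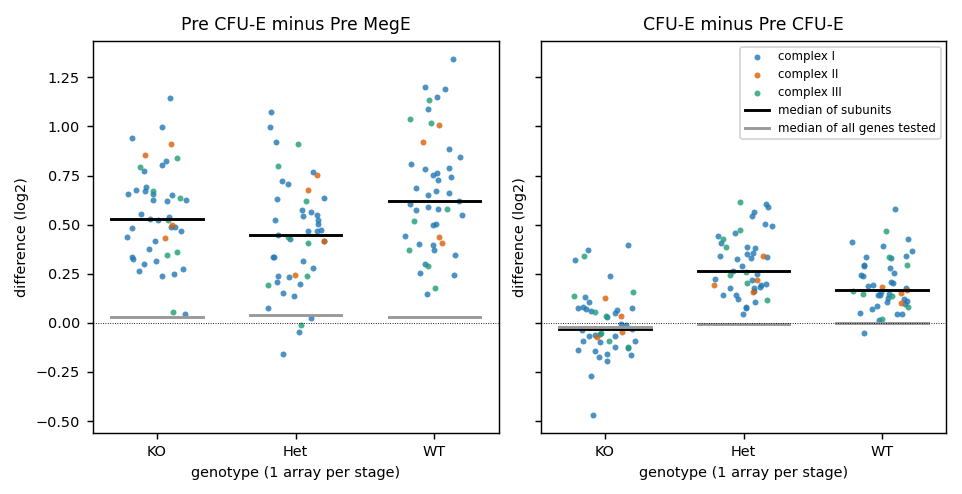
Difference in log2 level of each of the 47 subunit genes (points, coloured by complex) for each genotype, Pre CFU-E minus Pre MegE on the left and CFU-E minus Pre CFU-E on the right; each point is 1 array minus 1 array, black bars are medians of the subunit genes and grey bars medians of all genes tested. The second step centres on -0.03 in KO, 0.26 in Het and 0.17 in WT.

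A term for the KO CFU-E array was added to the progenitor fit after these values were seen. With it, 46 of 47 subunit genes lay below what stage and genotype gave, by a median of 0.26 on the log2 scale (-0.26), but none was called (smallest adjusted p = 0.239), and no gene of the 10701 was called (0.0%), while 1783 genes and 25 subunit genes had an unadjusted p under 0.05. Over all genes tested the median of the KO CFU-E term was -0.005. The same term for each of the other 8 arrays gave subunit medians between -0.19 for WT Pre MegE and 0.14 for WT CFU-E. The KO CFU-E array was thus the farthest from the additive pattern, and since it is the only array of its kind, genotype, mouse and array cannot be told apart.

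Subunits were next compared by genotype. The 3 stages served as the arrays of each genotype, and the labels do not say whether they came from the same mice. Over the 9 progenitor arrays, KO against WT called none of the 47 genes (0.14% of all genes were called in either direction), with 614 genes and no subunit gene at an unadjusted p under 0.05 in limma, and the smallest adjusted p of a subunit gene was 0.911. Het against WT also called none (0.0374% of all genes, with 566 genes and no subunit gene at an unadjusted p under 0.05), and KO against Het called none of any genes (0.0%), with 255 genes at an unadjusted p under 0.05 and no subunit gene among them. The medians over the 47 genes were 0.00 in all 3 comparisons, but they moved with single arrays. KO against WT had a median of 0.09 without KO CFU-E, with 44 of 47 genes above 0 and 5 at an unadjusted p under 0.05, and of -0.05 without WT Pre MegE, with 40 below 0. KO against Het had 0.08 without KO CFU-E and -0.06 without Het Pre CFU-E, and Het against WT 0.06 without Het Pre CFU-E and -0.05 without WT Pre MegE. No subunit gene was called in any of these fits. Stage by stage the values had opposite signs. KO minus WT had a median of 0.14 in Pre MegE, where 38 of 47 genes were higher in KO, 0.04 in Pre CFU-E, where 37 were higher, and -0.16 in CFU-E, where 45 were lower. The median of all genes was 0.00 at each stage.

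In Pre MegE the largest values of KO minus WT were those of Ndufa4 (0.49), Ndufb6 (0.46), Uqcrq (0.45), Uqcr10 (0.37) and Ndufa6 (0.35). Ndufb6, a membrane-arm subunit, had 12.24 (KO), 12.22 (Het) and 11.78 (WT) in Pre MegE, 13.01 (KO), 12.77 (Het) and 12.98 (WT) in Pre CFU-E, and 12.87 (KO), 13.10 (Het) and 13.12 (WT) in CFU-E. Its WT Pre MegE array stood apart from the KO and Het ones, and the later stages did not show this. In CFU-E, Ndufb3 was lowest in KO relative to WT, at -0.56, followed by Ndufv3 (-0.40), Ndufa12 (-0.33), Ndufs5 (-0.31) and Ndufc1 (-0.30). Ndufb3, another membrane-arm subunit, had 8.46 (KO), 8.41 (Het) and 8.17 (WT) in Pre MegE, 9.28 (KO), 8.88 (Het) and 9.26 (WT) in Pre CFU-E, and 9.09 (KO), 9.43 (Het) and 9.65 (WT) in CFU-E. In CFU-E its KO array was lowest and its WT array highest, and the Het array lay between them. The core and catalytic genes at CFU-E had a median KO minus WT of -0.12 for complex I core, -0.09 for complex II and -0.08 for the catalytic or core genes of complex III. Several other lists also had KO minus WT medians below 0 in CFU-E: -0.11 for complex IV, -0.13 for complex V, -0.13 for complex I assembly and -0.11 for glycolysis, but 0.01 for the regulators. Genes of the TCA cycle list went both ways: Ogdh had 11.82 in KO and 11.67 in WT CFU-E, and Fh1 12.20 in KO and 12.43 in WT CFU-E. The erythroid markers had -0.05 and the neutrophil markers -0.37 at CFU-E, and the neutrophil markers were also lower in KO at Pre MegE (-0.16) and Pre CFU-E (-0.32). Their part in the KO values was not tested.

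**Figure D3:**
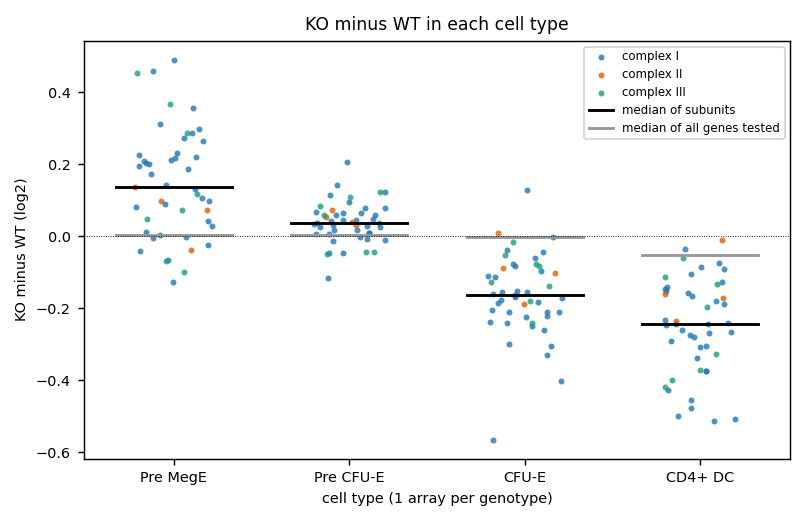
KO minus WT difference in log2 level of each of the 47 subunit genes (points, coloured by complex) in each cell type, 1 KO array minus 1 WT array; black bars are medians of the subunit genes and grey bars medians of all genes tested. The medians of the subunit genes were 0.14 in Pre MegE, 0.04 in Pre CFU-E, -0.16 in CFU-E and -0.24 in CD4+ DC.

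CD4+ DC were then set against the progenitors. All 47 subunit genes were called lower in DC than in the mean of the 3 stages, beside 64.6% of all 11560 genes tested, and the median difference was -1.49, where that of all genes was -0.59. The 2 DC arrays lay below all 9 progenitor arrays in every one of the 47 genes, as in 57.8% of all genes tested. Of the 47, 42 were past 2-fold and 7 past 4-fold. Ndufb2 is counted among the 47 although it passed the filter through progenitor arrays alone. The general shift depends on scaling: after quantile normalization the median of all genes was -0.10, calls over all genes went to 4671 higher and 5512 lower against 2928 higher and 7463 lower, and 45 subunit genes were still called lower with a median of -0.93. The subunit median thus lay 0.90 below that of all genes as deposited (-0.90), 0.83 below it after quantile normalization (-0.83), and 1.42 below it with no filter on dim genes (-1.42), where the median of all genes was -0.07.

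Ndufb6 was the lowest in DC, with 9.45 in KO and 9.82 in WT CD4+ DC against the progenitor levels given above, a difference of -3.03 ± 0.14 (adjusted p = 3.82e-09). Ndufv1, the NADH-oxidising core subunit, had 9.43 in KO and 9.62 in WT CD4+ DC against 11.53 ± 0.11 in Pre MegE, 12.16 ± 0.06 in Pre CFU-E and 12.40 ± 0.09 in CFU-E (SD, n = 3 each), a difference of -2.50 ± 0.08 (adjusted p = 2.37e-10). Uqcr11 followed with 8.71 in KO and 9.11 in WT CD4+ DC and a difference of -2.32 ± 0.11 (adjusted p = 3.66e-09). The anchor Sdhd had 9.12 in KO and 9.29 in WT CD4+ DC and differed by -2.11 ± 0.08 (adjusted p = 1.04e-09), and Ndufa9, an accessory subunit at the junction of both arms, had 9.47 in KO and 9.75 in WT CD4+ DC and differed by -2.06 ± 0.08 (adjusted p = 7.65e-10). Of the core subunits of complex I the differences were -1.89 for Ndufs1, -1.70 for Ndufs7, -1.68 for Ndufs3, -1.23 for Ndufs8 and -1.07 for Ndufv2. In complex II they were -1.49 for Sdhc, -1.38 for Sdha and -1.17 for Sdhb, and in complex III -2.003 for Uqcrc2, -1.86 for Uqcrfs1 and -1.56 for Uqcrc1, all called.

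Among the probe sets used, the smallest differences belonged to Ndufa12, Ndufa7, Ndufb2, Uqcrh and Ndufa1, while the other probe set of Ndufa11 gave -0.38. Ndufa12 had 8.51 in KO and 8.64 in WT CD4+ DC and a difference of -0.69 ± 0.10 (adjusted p = 4.31e-05), close to the median of all genes. Ndufa7 had 9.18 in KO and 9.42 in WT CD4+ DC and differed by -0.73 ± 0.07 (adjusted p = 1.18e-06), Ndufb2 by -0.75 ± 0.12 (adjusted p = 0.000141), Uqcrh by -0.88 ± 0.06 (adjusted p = 4.86e-08) and Ndufa1 by -0.94 ± 0.09 (adjusted p = 2.14e-06). After quantile normalization Ndufa12 and Ndufa7 were no longer called. Ndufb2 lay below the array median on both DC arrays, at 7.13 in KO and 7.60 in WT DC. It passed the filter through progenitor arrays alone, where it was higher, so its call in DC gives no support of its own.

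**Figure D4:**
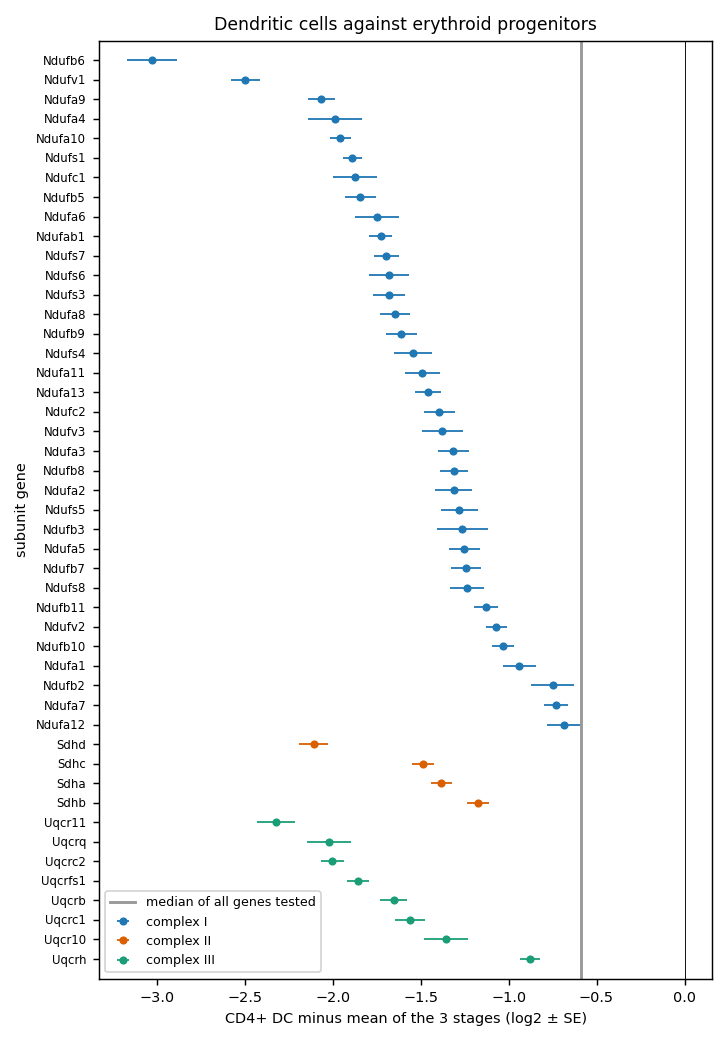
Difference in log2 level between CD4+ DC and the mean of the 3 erythroid stages for the 47 subunit genes, with bars of 1 SE from the limma fit over 11 arrays, coloured by complex; the grey line is the median of all 11560 genes tested. All points lie left of 0 and of the grey line at -0.59, from Ndufa12 at -0.69 to Ndufb6 at -3.03. The other probe set of Ndufa11, not drawn, gave -0.38, to the right of the grey line.

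Stage by stage, DC were lower in all 47 genes against CFU-E (median -1.80; 61.0% of all genes were lower) and in all 47 against Pre CFU-E (median -1.57; 63.1% of all genes). Against Pre MegE 46 were lower (median -1.14; 65.7% of all genes), and Ndufa1 did not pass at -0.21 ± 0.11 (adjusted p = 0.0918). After quantile normalization 38 were called lower than in Pre MegE and 2 higher, Ndufa1 at 0.33 and Ndufa7 at 0.25. Of all 11560 genes, 5405 were then called lower and 4402 higher. The 3 comparisons share the DC arrays. In DC against the mean of the stages, 64.6% of all genes tested were called lower, and the median of all genes was -0.59. Among the other lists, complex I assembly had 12 of 12 lower in this comparison (median -1.35), led by Ndufaf1 at -3.11 ± 0.10 (adjusted p = 1.58e-10). Complex V had 15 of 15 lower (-1.36), the TCA cycle list 17 of 17 (-1.30), and complex IV 9 of 10 with 1 higher (-1.04). Of the regulators 13 of 14 were lower (-1.43), led by Myc at -2.38 ± 0.05 (adjusted p = 1.67e-11). Glycolysis had 8 of 12 lower and 4 higher (-0.98), with Pfkm at -3.05 ± 0.06 (adjusted p = 5.44e-12) and Slc2a1 at 1.83 ± 0.07 (adjusted p = 7.66e-10). ND3, encoded by the mitochondrial genome, differed by -0.95 ± 0.06 (adjusted p = 3.82e-08) and COX2 by -0.25 ± 0.05 (adjusted p = 0.00107).

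Last, KO DC were compared with WT DC, 1 array against 1. None of the 46 tested subunit genes was lower past 1.5-fold, as were 1.77% of the 10554 genes measured in DC, but all 46 read lower in KO, by a median of 0.24 on the log2 scale (-0.24), where the median of all genes was -0.05. With that negative median, most of all genes measured in DC also read lower in KO. Ndufs6 had 8.15 in KO and 8.67 in WT CD4+ DC, Ndufc1 8.68 in KO and 9.19 in WT CD4+ DC, and Ndufa4 9.17 in KO and 9.67 in WT CD4+ DC, the largest gaps among those tested, at -0.51, -0.51 and -0.50. Sdha had 11.05 in KO and 11.06 in WT CD4+ DC, the smallest gap, at -0.01. Core complex I genes had a median of -0.25, complex II -0.17, and the catalytic or core genes of complex III -0.13, while complex IV had -0.27, complex V -0.23, the regulators -0.11 and glycolysis -0.02. After quantile normalization 44 of 46 read lower, Ndufv3 (0.06) and Sdha (0.003) read higher, and Ndufs6 passed 1.5-fold at -0.62. On the same arrays the summed level of the 4 macrophage markers was 13.51 in KO and 13.50 in WT DC, with C1qa and C1qb lower and Adgre1 and Csf1r higher in KO. That of the 2 B cell markers was 9.75 in KO and 9.14 in WT DC, with Ms4a1 at 9.55 in KO and 8.57 in WT DC and Cd79a at 6.82 in KO and 7.52 in WT DC. The 4 neutrophil markers summed to 9.15 in KO and 9.46 in WT DC. Their part in the subunit values was not tested.

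Whether the KO difference in DC departed from that in progenitors was tested with an interaction term, which lends the DC arrays the spread of the progenitor arrays. Over all genes tested the median of the term was -0.05, and 39.4% of the values were above 0. The subunit median of the term was -0.24 and 45 of 47 values were below 0, but none was called, beside 4.57% of all genes called in either direction, and 14 subunit genes had an unadjusted p under 0.05. The nearest was Ndufb8, a membrane-arm subunit, at -0.38 ± 0.10 (adjusted p = 0.0588), with 9.45 in KO and 9.83 in WT CD4+ DC and 11.25 (KO), 11.31 (Het) and 11.31 (WT) in CFU-E. Next came Uqcr11 at -0.53 ± 0.14 (adjusted p = 0.0724). Without the KO CFU-E array 10 subunit genes were called lower, Uqcr11 at -0.61 and Uqcr10 at -0.67 among them, so this count rests on 1 array. The 4.57% of all genes is from the fit of all arrays and is no background for it.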

How the data were processed

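RNA of sorted cells was hybridised to 11 single-colour Affymetrix arrays after biotin labelling with the Ambion/Affymetrix WT Expression Kit, per the labels' protocols. The authors deposited linear-scale intensities, 1 per probe set and array, made with RMA (named in the submitters' processing notes, version not given in the sources used here). Log2 of the deposited intensities was taken without further scaling. Of 29674 probe sets, 21780 carried 1 gene symbol, 1618 several and 6276 none in the annotation used here. The probe set with the highest mean over 11 arrays stood for each of 19933 genes.

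Genes at or above the array median on at least 2 arrays entered limma 3.58.1 under R 4.3.3, with moderated two-sided tests and Benjamini-Hochberg adjustment over all genes tested, and were called at an adjusted p under 0.05. Every adjusted p in the text comes from limma. The 9 progenitor arrays were fitted with cell type and genotype (10701 genes, 4 residual degrees of freedom), and all 11 with the same terms (11560 genes, 5 residual degrees of freedom). KO and WT DC were compared by difference alone over 10554 genes, with 1.5-fold as the mark, and through an interaction term (4 residual degrees of freedom). The progenitor fit was run on simulated data with known stage differences, independent noise and no genotype effects. That run does not cover departures of single arrays from stage and genotype. Members, lists and tests were chosen with earlier results of these data known.

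The genes named follow a rule: the core complex I, complex II and catalytic or core complex III genes, the 5 highest and 5 lowest differences of a comparison, up to 4 called genes of a pathway list, and Zbtb46. Genes named by genotype or for the KO CFU-E array were chosen after their values were seen. Alternatives covered scaling, filter, probe set, model and left-out arrays. The labels name no individual mice, and no genotype and cell type has a replicate array. The p-values therefore rest on how far arrays depart from the fitted terms, not on a spread between replicates. Those departures may mix genotype effects that differ between stages, differences between mice and technical noise, which cannot be told apart here. The KO CFU-E departure is part of them in the fits without a term for it. The number of arrays limits the precision.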

Additional observations from a re-analysis of the deposited data

Results flagged for a closer look

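At the second step the median of CFU-E minus Pre CFU-E over the subunit genes was -0.033 in KO, against 0.26 in Het and 0.17 in WT, so it lay on either side of 0. In KO 26 of 47 genes were below 0, and the median of all genes was -0.02. Likewise KO minus WT had a median of 0.14 in Pre MegE, but -0.16 in CFU-E and -0.24 in CD4+ DC. Each value compares 1 array with 1 array, and the differences between these medians were not tested.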

How the results depend on the processing

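Scaling, filters, probe sets, models and left-out arrays moved no count of called subunit genes by over 1.5 times in Pre CFU-E against Pre MegE (40 to 44 genes higher without single arrays), in CFU-E against Pre MegE (42 to 46) or in DC against the progenitors (45 to 47 lower without single arrays). After quantile normalization DC against Pre MegE turned to higher for Ndufa1 (0.33) and Ndufa7 (0.25), which were called, and for Ndufa12 (0.083) and Sdhb (0.082), which were not. KO against WT, Het against WT and KO against Het in progenitors called no subunit gene under any of them. CFU-E against Pre CFU-E gave between 7 and 29 genes without single arrays, and 26 without all KO arrays, beside 2003 of the 10564 genes tested there. The interaction of KO with DC called between 0 and 10 genes without single arrays, 1 with centred arrays (Ndufb8) and 2 after quantile normalization (Ndufs6 and Uqcr11). Over all 11560 genes, 152 were called higher and 458 lower with centred arrays. After quantile normalization 513 of all genes were called higher and 622 lower. KO against WT in DC put 1 gene, Ndufs6, past 1.5-fold after quantile normalization, at -0.62. For DC against the mean of the stages, the subunit median minus that of all genes was -1.42 with no filter, and between -0.95 and -0.72 without single arrays. For KO against WT in DC, the same difference was -0.19 with centred arrays, -0.18 after quantile normalization, -0.25 with no filter and -0.19 with the mean of all probe sets; with 1 array each it has no error. With DC as a single yes or no term, Ndufa1 was not called (-0.94, adjusted p = 0.0842). The cause of these changes was not tested.

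In the stage comparisons, no subunit gene that was called changed direction under these alternatives. Among those not called, 3 did so in Pre CFU-E against Pre MegE, 14 in CFU-E against Pre CFU-E (8 of them without WT CFU-E and 8 without Het Pre CFU-E) and 2 in CFU-E against Pre MegE, all with differences of at most 0.12 in size over all arrays as deposited. After quantile normalization Ndufb11 stood at -0.019 and Uqcrh at -0.011 in Pre CFU-E against Pre MegE, Ndufs8 at -0.021 in CFU-E against Pre CFU-E, and Ndufb11 at -0.0088 in CFU-E against Pre MegE. Without the KO arrays Ndufa3 stood at 0.0099 and Ndufv3 at 0.093 in CFU-E against Pre CFU-E. Without single arrays, Ndufv3 ranged from -0.0099 to 0.22 in Pre CFU-E against Pre MegE and from -0.12 to 0.18 in CFU-E against Pre MegE. In CFU-E against Pre CFU-E the ranges were -0.063 to 0.13 for Ndufa12, -0.16 to 0.0033 for Ndufa3, -0.025 to 0.10 for Ndufb11, -0.065 to 0.076 for Ndufs8, -0.24 to 0.057 for Ndufv3, -0.064 to 0.11 for Uqcrc1 and -0.0068 to 0.090 for Uqcrc2. Genotype was a term of the progenitor fit, which sets the stages against each other within genotypes; without that term 44, 19 and 45 subunit genes were called higher in Pre CFU-E against Pre MegE, CFU-E against Pre CFU-E and CFU-E against Pre MegE.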
